A study of Mus musculus with 6 samples.

Results

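Slc2a2, Ucn3, Trpm5 and Pcx were followed in RNA sequencing counts of mouse pancreatic islets, as 4 genes of 55421 listed in each library. They were chosen by name, as genes of glucose entry and of the mature beta cell, and each was found as 1 Ensembl gene. The islets came from wild-type C57BL/6 mice, and 3 libraries were labelled vehicle and 3 were labelled as stimulated with the ligand insB:9-23. Insulin B:9-23 is known as a peptide of the B chain that T cells recognise in autoimmune diabetes. By its title the study asked on which islet genes the ligand acts. The sources used here give no dose, route, duration, age or sex, and do not settle whether mice or isolated islets received the ligand. They tie no library to an animal, so that the p-values reflect only how far these libraries differ among themselves, which can be technical.

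The mature beta cell turns blood glucose into insulin release. Glucose enters through a facilitative transporter and is broken down to pyruvate, and the ATP made closes a potassium channel, so that the membrane depolarises, calcium enters and granules are released. Slc2a2 encodes GLUT2, the low-affinity glucose transporter of the rodent beta cell. Ucn3 encodes urocortin 3, a peptide of the corticotropin-releasing factor (CRF) family that appears late in mouse beta cell maturation and acts on receptors of neighbouring delta cells. Trpm5 encodes a calcium-activated cation channel that carries depolarising current, also known from taste and tuft cells. Pcx encodes pyruvate carboxylase, the biotin enzyme that feeds pyruvate into the mitochondrial oxaloacetate pool.

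On GRCm38 with GENCODE M21, Slc2a2 lies on the plus strand of chromosome 3 (28697903 to 28731359) with 11 merged exon blocks, and Ucn3 on the minus strand of chromosome 13 (3940688 to 3945349) with 2. Trpm5 is on the minus strand of chromosome 7 (143069153 to 143094642) with 27 blocks, and Pcx on the plus strand of chromosome 19 (4510472 to 4621752) with 25. Of the exonic bases of Trpm5, 220 (3.44%) also lie in exons of Tssc4 on the opposite strand, and since the strand setting of the counting is not stated, reads there could not be assigned with certainty. Slc2a2 and Pcx each overlap another gene on the opposite strand (1700112D23Rik and Lrfn4), with no exonic base shared, and Ucn3 overlaps none.

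The 250 bases before the annotated starts (RefSeq, GRCm38.p6) are shown for Slc2a2 and Ucn3, whose CPM (counts scaled to a common library size) did not overlap between the groups, and for the 2 starts of Pcx, whose transcripts the gene counts pool. Capitals mark the E-box CANNTG, the motif of basic helix-loop-helix factors such as NEUROD1, and the homeodomain core TAAT, the motif of factors such as PDX1 and NKX6-1, each searched on both strands, with no overlap between matches.
Slc2a2, chr3:28697653-28697902, plus strand: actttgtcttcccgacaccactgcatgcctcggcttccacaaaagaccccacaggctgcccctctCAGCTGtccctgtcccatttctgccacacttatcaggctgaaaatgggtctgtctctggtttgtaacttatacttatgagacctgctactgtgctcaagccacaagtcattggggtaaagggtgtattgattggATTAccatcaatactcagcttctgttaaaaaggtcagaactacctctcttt
Ucn3, chr13:3945350-3945599, minus strand: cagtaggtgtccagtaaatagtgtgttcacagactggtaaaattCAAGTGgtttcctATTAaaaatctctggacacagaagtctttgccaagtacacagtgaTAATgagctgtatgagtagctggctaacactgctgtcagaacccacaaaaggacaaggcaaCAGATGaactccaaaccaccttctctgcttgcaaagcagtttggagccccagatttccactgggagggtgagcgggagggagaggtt
Pcx, upstream start, chr19:4510222-4510471, plus strand: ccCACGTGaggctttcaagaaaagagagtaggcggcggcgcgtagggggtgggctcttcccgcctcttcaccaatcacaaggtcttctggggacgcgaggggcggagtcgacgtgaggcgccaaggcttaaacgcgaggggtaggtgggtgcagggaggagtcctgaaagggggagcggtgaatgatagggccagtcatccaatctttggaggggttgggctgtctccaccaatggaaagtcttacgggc
Pcx, downstream start, chr19:4594069-4594318, plus strand: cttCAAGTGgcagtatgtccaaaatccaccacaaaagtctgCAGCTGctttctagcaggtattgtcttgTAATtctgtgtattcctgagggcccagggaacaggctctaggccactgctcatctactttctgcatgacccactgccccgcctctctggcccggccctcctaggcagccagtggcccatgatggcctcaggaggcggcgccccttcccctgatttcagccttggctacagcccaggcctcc

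The windows held 1 E-box and 1 homeodomain core for Slc2a2 and 2 of each for Ucn3. The upstream Pcx window held 1 E-box and 0 homeodomain cores, and the downstream window held 2 and 1. The Trpm5 window, which is not printed, held 0 E-boxes and 1 homeodomain core. Among 32851 promoter windows of the same length, 66.2% held an E-box and 54.9% a homeodomain core, so that these matches are common and describe letters, not binding. The half-site TGCTGA, part of the element bound by MAF factors, was in 16.1% of all windows and in none of these 5. The share of G and C was 47.2% for Slc2a2, 46.4% for Ucn3, 52.8% for Trpm5, and 60.8% and 58% for the upstream and downstream Pcx windows, against a median of 52.4%. Of 7 annotated Pcx transcripts, 3 begin within 1000 bases of the upstream start and 2 within 1000 bases of the downstream one.

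Libraries held between 52052808 and 58880189 counts. The 12 beta cell markers took 12.1% to 14.0% of counts in the vehicle group and 9.70% to 13.9% in the insB:9-23 group, where the lowest was replicate 3. The 11 acinar markers took 11.9% to 13.5% and 12.8% to 19.3%, with the highest in that same replicate, so that insulin-producing and exocrine cells both gave much of the RNA. In bulk RNA, fewer cells of a type and less RNA per cell cannot be told apart. The 7 T and B cell markers took 0.000834% to 0.00103% in vehicle, and 0.00103%, 0.00627% and 0.000522% in insB:9-23 replicates 1 to 3, so that replicate 2 stood apart. Of the beta cell markers, Mafa, a single-exon gene for a maturity factor, had 0 counts in all 6 libraries, which allows up to 0.0655 CPM by counting error alone, while the other 11 had over 3 counts in each.

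Slc2a2 was among the most abundant messages and stood slightly lower in all 3 insB:9-23 libraries. It was at 874, 868 and 869 CPM at TMM-scaled library size in the 3 vehicle libraries, and at 767, 848 and 795 CPM in the treated ones, each in the order of their replicate numbers. The groups did not overlap, but insB:9-23 replicate 2, the library with the highest T and B cell marker share, lay close to the vehicle libraries. The part of those cells in the result was not tested. The means were 870.3 ± 3.41 and 803 ± 41.2 CPM (SD, n = 3 each). The log2 fold change was -0.12 ± 0.06 (SE), a change of -7.72% with a 95% interval from -16.8% to 2.41%, and it did not pass the test (edgeR's quasi-likelihood test, Benjamini-Hochberg adjusted p = 0.88).

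Ucn3 had the lowest log2 fold of the 4 genes as reported, but Pcx did without insB:9-23 replicate 3 and with the acinar share as a covariate. It was at 279, 275 and 289 CPM in the 3 vehicle libraries and at 251, 267 and 226 CPM in the treated ones. All 3 treated libraries lay below all 3 vehicle libraries, and replicate 3 was the lowest of the 6. The means were 281 ± 7.51 and 248 ± 20.7 CPM (SD, n = 3 each). The log2 fold change of -0.18 ± 0.08 (SE), or -11.7% with a 95% interval from -22.4% to 0.412%, did not pass (edgeR adjusted p = 0.88, unadjusted p = 0.056). Replicate 3 of the insB:9-23 group was also the library with the highest acinar and lowest beta cell marker share. Without it the log2 fold was -0.11, and with the acinar share as a covariate it was -0.09.

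Trpm5 was at 130.3, 133 and 127 CPM in the 3 vehicle libraries and at 118, 129.8 and 117 CPM in insB:9-23 replicates 1 to 3. The second treated library fell inside the vehicle range, so the groups overlapped. The log2 fold change was -0.10 ± 0.07 (SE; edgeR adjusted p = 0.89), a change of -6.59% with a 95% interval from -16.4% to 4.39%. Without insB:9-23 replicate 2 it was -0.15, and with the acinar covariate -0.04, with no call in either.

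Pcx was at 122, 125 and 119 CPM in the vehicle libraries and at 114, 106 and 123 CPM in insB:9-23 replicates 1 to 3. Here replicate 2 was the lowest and replicate 3 lay within the vehicle range, an order unlike that of the other 3 genes. The log2 fold change was -0.09 ± 0.07 (SE; edgeR adjusted p = 0.90), a change of -6.17% with a 95% interval from -16.8% to 5.87%. Without insB:9-23 replicate 2 it was -0.04, without replicate 3 it was -0.14, and with the acinar covariate it was -0.17.

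**Figure D1:**
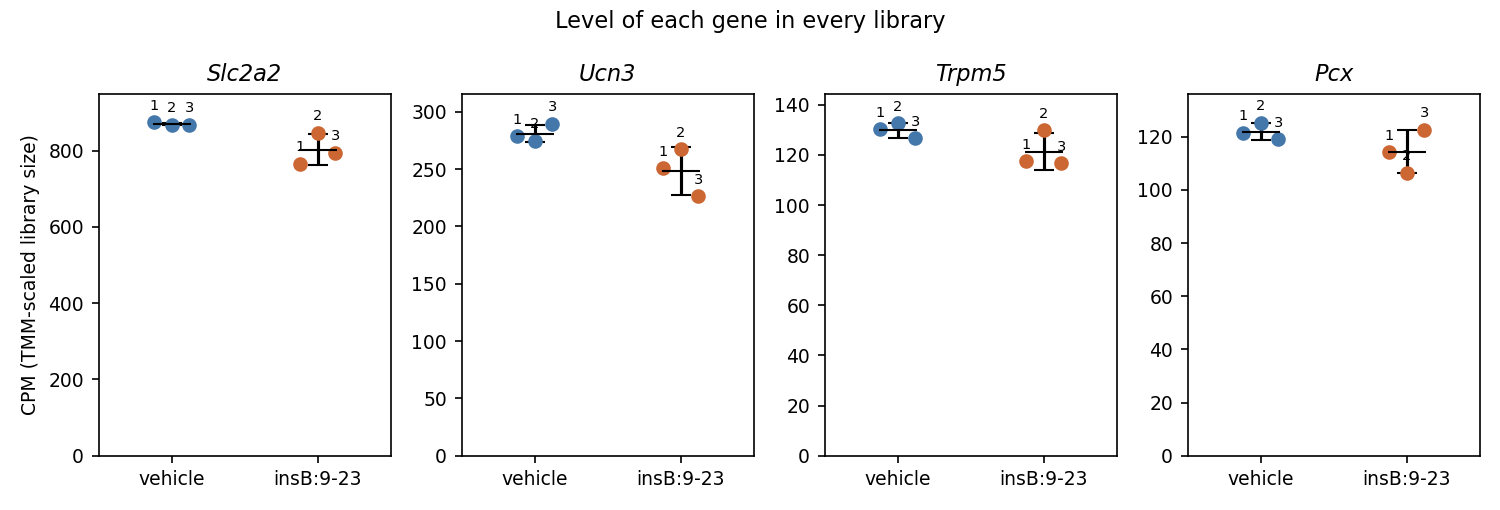
CPM at TMM-scaled library size of Slc2a2, Ucn3, Trpm5 and Pcx in each library (points, numbered by replicate), with group means and SD (bars, n = 3). The treated libraries lie below all vehicle libraries for Slc2a2 and Ucn3 and overlap with them for Trpm5 and Pcx.

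Between the groups 0 of the 4 genes passed, in a comparison in which 14 of 17016 genes tested did (0.0823%, with 0.0529% lower and 0.0294% higher in the insB:9-23 group). DESeq2 called 106 of 19178 genes (0.553%), again 0 of these 4, and at an unadjusted p below 0.05 in edgeR there were 944 genes, 0 of these 4. All 4 estimates were below 0, as were those of 48.5% of genes tested. Groups that do not overlap, with insB:9-23 lower, were found for 2 of 4 genes and for 7.12% of all genes tested. With insB:9-23 higher it was 0 of 4, against 6.4% of all genes. With counts divided by library totals alone they did not overlap for Slc2a2, Ucn3 and Pcx, against 13.2% of all genes.

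**Figure D2:**
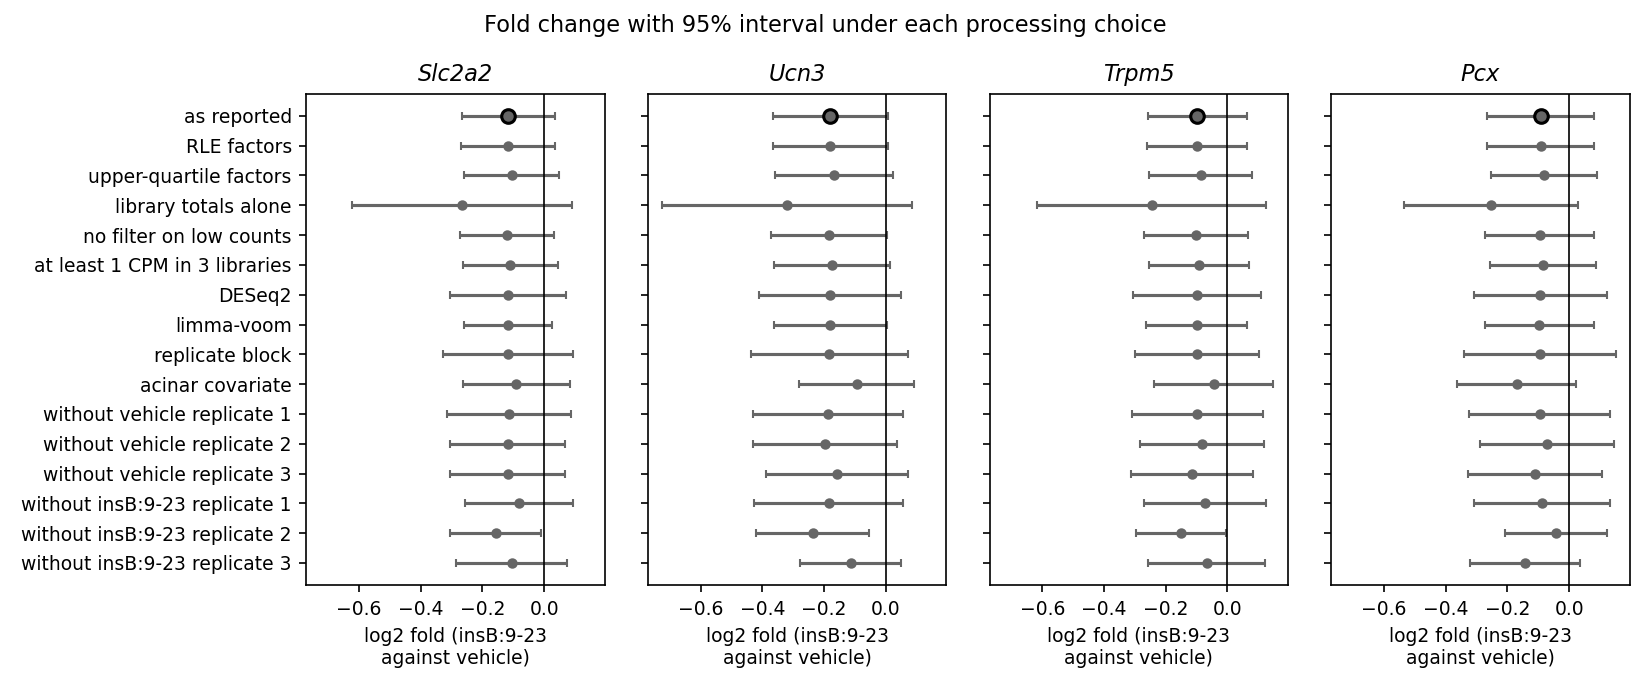
Log2 fold change of each gene (insB:9-23 against vehicle; points) with 95% intervals (bars) as reported and under each alternative. All estimates lie below 0, and the intervals of Slc2a2, Ucn3 and Trpm5 lie wholly below 0 only without insB:9-23 replicate 2.

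The vehicle libraries were closely alike for these genes. For Slc2a2 the coefficient of variation was 0.392% in the vehicle group, where counting error alone would give about 0.439%, and 5.13% in the insB:9-23 group. The median among 90 genes within a factor of 2 in CPM was 6.38% and 7.32%. Ucn3 varied by 2.67% in the vehicle group and 8.36% in the treated group, Trpm5 by 2.29% and 6.05%, and Pcx by 2.56% and 7.12%. The median among genes within a factor of 2 in CPM was 5.80% in vehicle and 6.77% in the treated group for Ucn3. It was 6.08% and 7.25% for Trpm5, and 6.22% and 7.35% for Pcx. Each of the 4 genes therefore varied more among the treated libraries, as did genes of like level by these medians. With 3 libraries a group this difference was not tested. Across all 6 libraries the highest CPM exceeded the lowest by a factor of 1.14 for Slc2a2 and Trpm5, 1.18 for Pcx and 1.28 for Ucn3.

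Per length, Ucn3 and Slc2a2 were the more abundant pair. Levels in CPM per kilobase of exon averaged over the 6 libraries were 179 for Ucn3, 145 for Slc2a2, 24.9 for Pcx and 19.6 for Trpm5. These placed Ucn3 101st and Slc2a2 120th among 14621 protein-coding genes tested, Pcx 855th and Trpm5 1155th. Within each library Ucn3 was above Slc2a2, whose level was 0.771 to 0.903 of it, and both were several times above the other pair. The order of Trpm5 and Pcx depended on the length used: by all exonic bases Trpm5 was at 0.707 to 0.906 of Pcx, and by the length of the principal transcript, chosen after the data were seen, at 0.937 to 1.20.

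Among the glucose transporters Slc2a2 was far ahead of the others. Per kilobase of exon Slc2a2 was at 151 ± 0.593 in the vehicle group and 139.6 ± 7.16 in the insB:9-23 group (SD, n = 3). Slc2a5, the fructose transporter GLUT5, was the next at 55.7 and 53.0. Slc2a2 exceeded it by a factor of 2.52 to 2.76 in the 6 libraries. Slc2a1, the widely expressed GLUT1, was at 3.13 and 3.11, so that Slc2a2 was 42.1 to 50.6 times higher. Slc2a3, the neuronal GLUT3, was at 0.481 and 0.516, and Slc2a4, the insulin-responsive GLUT4, at 0.0556 and 0.118, with 8 to 40 counts a library. All 12 listed members of the family, Slc2a2 included, were tested and 0 passed in either direction. Of these, 7 had a fold above 0 and 5 below, with a median log2 fold of 0.02, against 0.01 over all genes.

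The steps after entry were likewise without a call. Of 15 glucose sensing genes, Slc2a2 among them, 0 passed, 4 had a fold above 0 and 11 below, and the median log2 fold was -0.05. G6pc2, the islet glucose-6-phosphatase subunit, was at 325 ± 11.1 CPM in vehicle and 289 ± 24.5 CPM after insB:9-23 (edgeR adjusted p = 0.88). The groups did not overlap, but the margin was small, with 314.9 CPM in insB:9-23 replicate 2 against 318.5 CPM in vehicle replicate 2. By CPM 3 of the 15 genes, Slc2a2 and G6pc2 among them, were lower without overlap, against 7.12% of all genes tested, and 0 were higher, against 6.4%. Abcc8, the sulfonylurea receptor of the potassium channel, was at 1171 ± 73.9 and 1102 ± 88.6 CPM, and Aldoa, the glycolytic aldolase, at 318 ± 22.2 and 304 ± 16.1 CPM. Gapdh, a glycolytic gene used by every cell, chosen after its values were seen, held only 2 to 495 counts, so a low count in these tables does not show that a gene is silent.

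**Figure D3:**
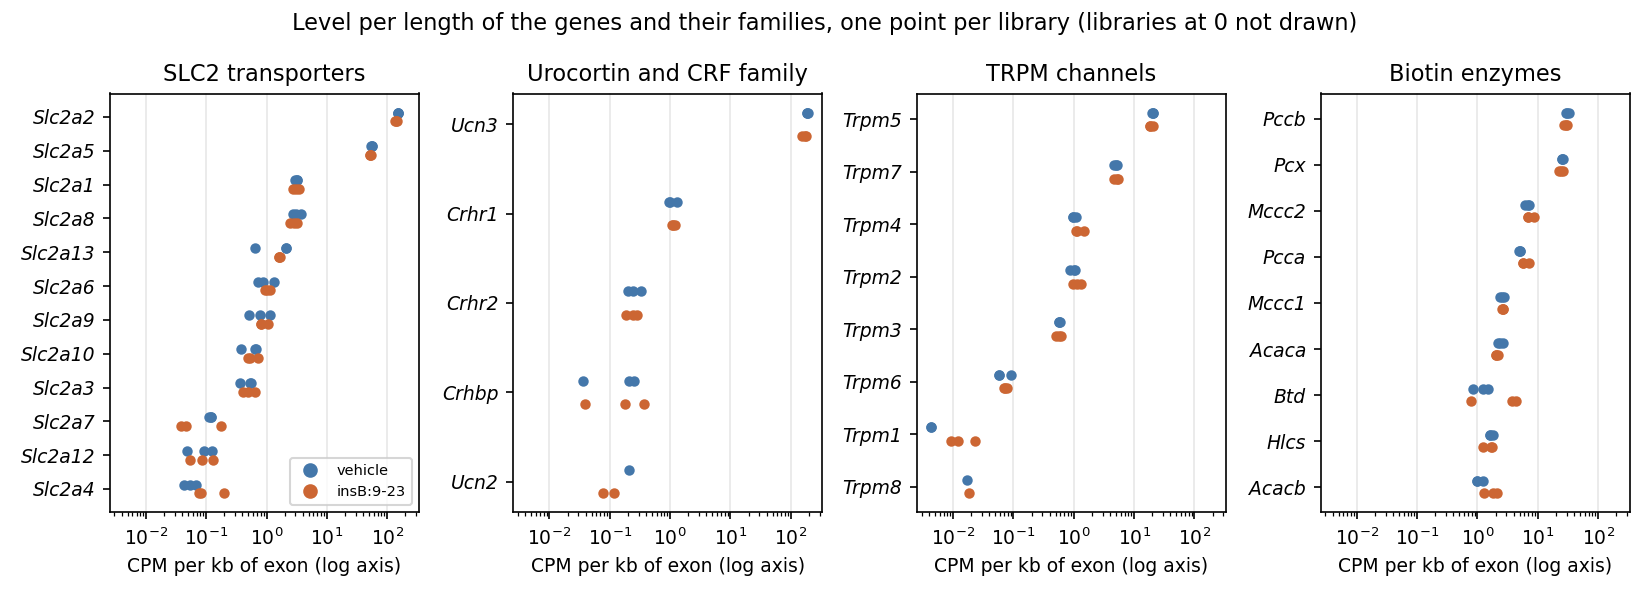
Level per kilobase of exon (log axis) of the 4 genes and of the other members of their families, with 1 point per library. Slc2a2, Ucn3 and Trpm5 lead their families, while Pcx and Pccb are close together.

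Ucn3 was the sole CRF-family peptide counted at a high level. Its level per kilobase was 190.2 ± 5.08 in vehicle and 168 ± 14.0 in the insB:9-23 group (SD, n = 3). Crh and Ucn, the genes of CRF and urocortin 1, had 0 counts in every library, and Ucn2 had between 0 and 13 counts. Such low counts do not show that these genes are silent. Of the receptors, Crhr1 was at 1.07 and 1.13 per kilobase. Crhr2, whose product binds urocortin 3 and marks delta cells, was at 0.257 and 0.236, with 53 to 105 counts a library. Of the 7 family genes, Ucn3 included, 4 were tested and 0 passed. On the delta cell side, Sst, somatostatin, the hormone by which delta cells restrain beta cells, was at 2420 ± 36.0 and 2426 ± 173 CPM. Of 8 delta cell feedback genes 7 were tested and 0 passed. By CPM 2 of the 7, Hhex, a delta cell factor, and Sstr2, a somatostatin receptor, were higher in all 3 treated libraries, against 6.4% of all genes tested. In this way 0 of the 7 were lower. Hhex was at 11.7 ± 0.996 and 15.2 ± 2.13 CPM and Sstr2 at 2.36 ± 0.0948 and 3.27 ± 0.349 CPM (edgeR adjusted p = 0.88 each). For Hhex the margin was small, with 12.79 CPM in insB:9-23 replicate 2 against 12.76 CPM in vehicle replicate 2. Hhex was highest, at 16.8 CPM, in insB:9-23 replicate 3, the library with the highest acinar marker share, and Sstr2 was highest, at 3.57 CPM, in replicate 1. Sstr3, a somatostatin receptor, stood apart in 1 treated library, with 772 counts in replicate 1, while elsewhere it ranged from 7203 to 10144.

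Trpm5 led the TRPM channels. Per kilobase it was at 20.3 ± 0.465 in vehicle and 19.0 ± 1.15 in the insB:9-23 group (SD, n = 3). Trpm7, a ubiquitous channel and kinase, followed at 4.95 and 5.13. Trpm4, the closest relative and likewise activated by calcium, was at 1.01 and 1.23, and Trpm2, a channel of the beta cell gated by ADP-ribose, at 0.984 and 1.14. Trpm5 exceeded Trpm4 by a factor of 18.6 to 21.5 in the vehicle libraries and 12.5 to 17.8 in the treated ones. By CPM Trpm4 itself was higher in every treated library than in any vehicle one, as were 6.4% of all genes tested, while Trpm5 overlapped. Trpm4 did not pass (edgeR adjusted p = 0.88). It was highest, at 15.8 CPM, in insB:9-23 replicate 3, the library with the highest acinar marker share, and the part of acinar cells was not tested. With principal-transcript lengths the factor over Trpm4 was smaller, with 7.57 as the lowest and 13.04 as the highest over all libraries. Of 8 TRPM genes, Trpm5 included, 6 were tested and 0 passed, 4 with a fold above 0 and 2 below.

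The partners of Trpm5 in taste cells were mostly near 0. Of 9 taste-type signalling genes, Trpm5 included, 5 were tested and 0 passed. Itpr3, the calcium release channel upstream of Trpm5 in taste cells, was at 137 ± 11.4 and 121 ± 10.4 CPM. Tas1r3, a subunit of the sweet and umami receptors, was at 2.33 ± 0.238 and 2.26 ± 0.364 CPM, and Tas1r1, the umami subunit, at 1.27 ± 0.340 and 0.863 ± 0.135 CPM. The markers of tuft cells, another source of Trpm5, were low. These 8 genes took 0.00162% to 0.00170% of counts in vehicle and 0.00123% to 0.00187% after insB:9-23. The 8 genes, named here after their values were seen, were not alike. Il25, a tuft cell cytokine, had 0 counts in all libraries, Sh2d6 had 0 to 5, Pou2f3, the factor that defines these cells, 0 to 8, Gng13 0 to 17 and Gnat3 2 to 20. Plcg2, which immune cells also express, had 325 to 627 counts, Dclk1 had 130 to 402 and Avil had 40 to 133, and these 3 were tested and did not pass. Their part in the level of Trpm5 was not tested.

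Pcx stood near the top of the biotin enzymes. Per kilobase it was at 25.7 ± 0.657 in vehicle and 24.1 ± 1.71 after insB:9-23 (SD, n = 3), beside Pccb, a subunit of propionyl-CoA carboxylase, at 30.9 and 29.0. Pcx was at 0.736 to 0.948 of Pccb in the 6 libraries. Mccc2, a subunit of methylcrotonyl-CoA carboxylase, was at 6.65 and 7.52. Pcca, the biotin-bearing partner of Pccb, was at 5.04 and 6.15. Pcx exceeded Pcca by a factor of 5.09 ± 0.0778 in the vehicle libraries and 3.95 ± 0.338 in the treated ones (SD, n = 3). With principal-transcript lengths the factor over Pcca was smaller, with 2.09 as the lowest and 3.00 as the highest over all libraries. By CPM Pcca itself was higher in every treated library than in any vehicle one, as were 6.4% of all genes tested, while Pcx overlapped. Pcca did not pass the edgeR test (adjusted p = 0.88). It was highest, at 37.5 CPM, in insB:9-23 replicate 3, the library with the highest acinar marker share, and the part of acinar cells was not tested. Acaca, acetyl-CoA carboxylase of fatty acid synthesis, was at 2.39 and 2.10. All 9 biotin enzymes, Pcx included, were tested and 0 passed, 5 with a fold above 0 and 4 below.

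In pyruvate cycling, with Pcx in the list, 19 of 19 genes were tested and 0 passed, 9 with a fold above 0 and 10 below, with a median log2 fold of -0.01. Acly, ATP citrate lyase, returns exported citrate to acetyl-CoA and oxaloacetate. It was at 1527 ± 130.5 CPM in vehicle and 1229 ± 68.0 CPM after insB:9-23 (edgeR adjusted p = 0.88, unadjusted p = 0.013). By CPM 3 of the 19 genes, Acly among them, were lower in all treated libraries than in any vehicle one, against 7.12% of all genes tested. Another 2 of the 19 were higher in all treated libraries, against 6.4% of all genes tested. Mdh1, the cytosolic malate dehydrogenase, was at 144 ± 7.80 and 146 ± 5.66 CPM, and Slc25a1, the citrate carrier, at 55.9 ± 14.6 and 57.7 ± 2.99 CPM. The 6 markers of adipocytes, another cell type rich in Pcx, took 0.000323% to 0.000461% of counts in vehicle and 0.000292% to 0.000493% after insB:9-23. Lep had 0 counts in every library and Adipoq at most 4, both chosen after their values were seen. Fabp4, which endothelial cells also express, had 161 to 263.

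The factors that keep beta cells mature gave no call either. Of 14 genes 12 were tested and 0 passed, 5 with a fold above 0 and 7 below, with a median log2 fold of -0.10. Mafa and Insm1, both at 0 counts in all libraries, were not tested, and Insm1 was named after its values were seen. Pdx1, which binds the Slc2a2 promoter in beta cells, was at 54.3, 157 and 147 CPM in the vehicle libraries and at 137, 130.2 and 125 CPM after insB:9-23. Neurod1 was at 179, 23.4 and 187 CPM and at 174, 173 and 173 CPM. Nkx6-1 was at 322, 71.7 and 31.8 CPM and at 69.9, 275 and 45.3 CPM. For these 3 factors single libraries differed severalfold within a group, up to a factor of 10.1 for Nkx6-1, a spread that Slc2a2, Ucn3, Trpm5 and Pcx did not share. Nkx2-2, another homeodomain factor, was steadier at 99.2 ± 1.74 and 91.2 ± 8.69 CPM.

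Genes of immature or dedifferentiated beta cells gave 0 calls among 12 tested of 13, with 7 folds above 0 and 5 below and a median log2 fold of 0.17. Of the 12, 3 were higher by CPM in all treated libraries than in any vehicle one (Neurog3, Hk2 and Ldha), against 6.4% of all genes tested. Neurog3, the factor of endocrine progenitors, had the largest fold of the list and few counts, which were 16, 9 and 7 for vehicle against 222, 15 and 125 after treatment, in replicate order (log2 fold 3.66, edgeR adjusted p = 0.88, unadjusted p = 0.011). Hk2, a hexokinase kept low in mature beta cells, stood at 1.52 ± 0.203 and 2.18 ± 0.247 CPM and did not pass (edgeR adjusted p = 0.88). Neurog3 and Hk2 were named after their values were seen. Ldha, lactate dehydrogenase, kept low in mature beta cells, was at 16.0 ± 0.728 and 22.0 ± 3.69 CPM, with groups that did not overlap (edgeR adjusted p = 0.88, unadjusted p = 0.018). It was highest, at 25.1 CPM, in insB:9-23 replicate 3, the library with the highest acinar marker share, while Neurog3 and Hk2 were highest in replicate 1. The part of acinar cells in these levels was not tested. Aldh1a3, a marker of dedifferentiated beta cells, was at 1.41 ± 0.392 and 1.70 ± 0.228 CPM. Cd81 was at 46.6 ± 2.73 and 50.6 ± 4.31 CPM, and Npy, neuropeptide Y, at 3.86 ± 0.483 and 3.11 ± 1.36 CPM.

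**Figure D4:**
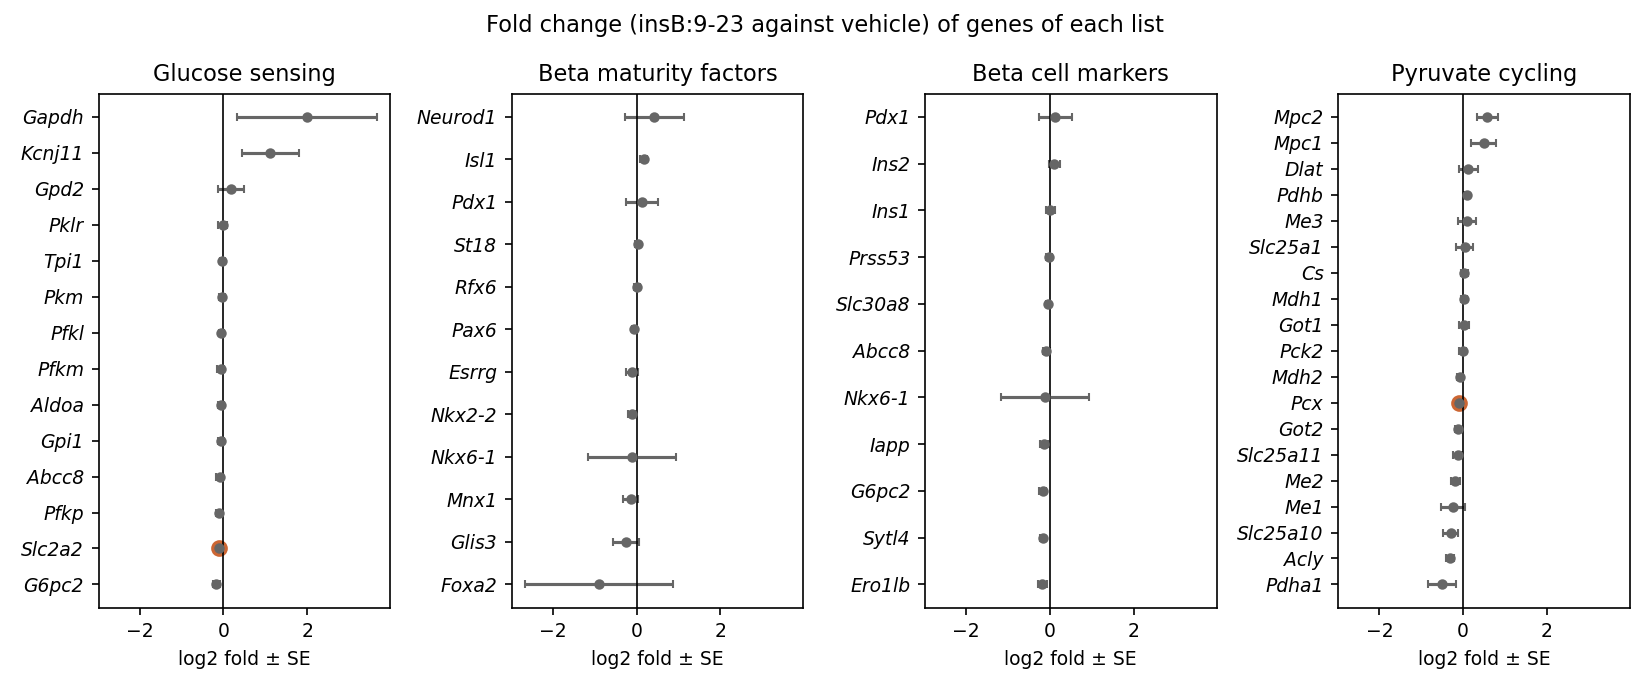
Log2 fold change (insB:9-23 against vehicle; points) with SE (bars) of genes of 4 lists, with Slc2a2 and Pcx as larger points. Both sit slightly below 0, and Gapdh, Kcnj11, Foxa2, Neurod1 and Nkx6-1 have wide errors.

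Set against the insulin genes, the 4 genes stood lower in the treated libraries than by CPM. Ins2 was at 65049 ± 5547 CPM in vehicle and 69956 ± 7059 CPM after insB:9-23, and Ins1 at 38629 ± 1983 and 38880 ± 758 CPM. Per 100000 counts of Ins1 and Ins2 together, Slc2a2 had 786, 872 and 867 counts in the vehicle libraries against 728, 730.1 and 757 in the treated ones, in replicate order. Ucn3 had 251, 276 and 289 against 238, 230.2 and 215. Both genes were lower in each treated library than in any vehicle one. Trpm5 had 117, 133 and 127 against 112, 112 and 111, which again did not overlap. Pcx had 109, 126 and 119 against 108, 91.7 and 117, which did overlap. On this scale 9.4% of all 17016 genes tested did not overlap with the treated libraries lower, against 3 of these 4. The differences in mean log2 ratio were -0.19, -0.25, -0.17 and -0.16 for Slc2a2, Ucn3, Trpm5 and Pcx. Two-sided exact permutation tests gave p = 0.1 for Slc2a2, Ucn3 and Trpm5, the smallest that 3 against 3 libraries allow, and p = 0.2 for Pcx. Per counts of all 12 beta cell markers, which the insulin genes dominate, the differences were -0.16, -0.22, -0.14 and -0.14.

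This depended on the insulin genes as the reference. Per 100000 counts of 9 other beta cell markers (Slc30a8, G6pc2, Abcc8, Nkx6-1, Mafa, Pdx1, Sytl4, Prss53 and Ero1lb), Slc2a2 had 16539.5 ± 922 counts in vehicle and 16506 ± 1030.4 after insB:9-23 (SD, n = 3). Ucn3 had 5345 ± 414 and 5097 ± 422. Trpm5 had 2468 ± 134 and 2494 ± 168, and Pcx had 2318 ± 137 and 2351 ± 176. The differences in mean log2 ratio were -0.0033, -0.069, 0.014 and 0.020, all smaller than the spread between libraries, and the two-sided exact permutation p was 0.9, 0.5, 0.9 and 0.9. On this scale 2.17% of all genes tested did not overlap with the treated libraries lower, against 0 of these 4. Ero1lb, an oxidase of the endoplasmic reticulum, made up 33.3% to 39.1% of this reference. Ero1lb was at 1986 ± 183 CPM in vehicle and 1751 ± 138 CPM after insB:9-23, with overlap. Mafa added 0 counts to the reference. The shares of Nkx6-1 and Pdx1 in it were unsteady between libraries, at 0.635% to 5.72% and 0.965% to 3.02%. By CPM 3 of the 11 markers tested (G6pc2, Sytl4 and Slc30a8) were lower with no overlap, against the 7.12% of all genes. Of the 11 markers tested 0 passed, 3 had a fold above 0 and 8 below, and the median log2 fold was -0.09.

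**Figure D5:**
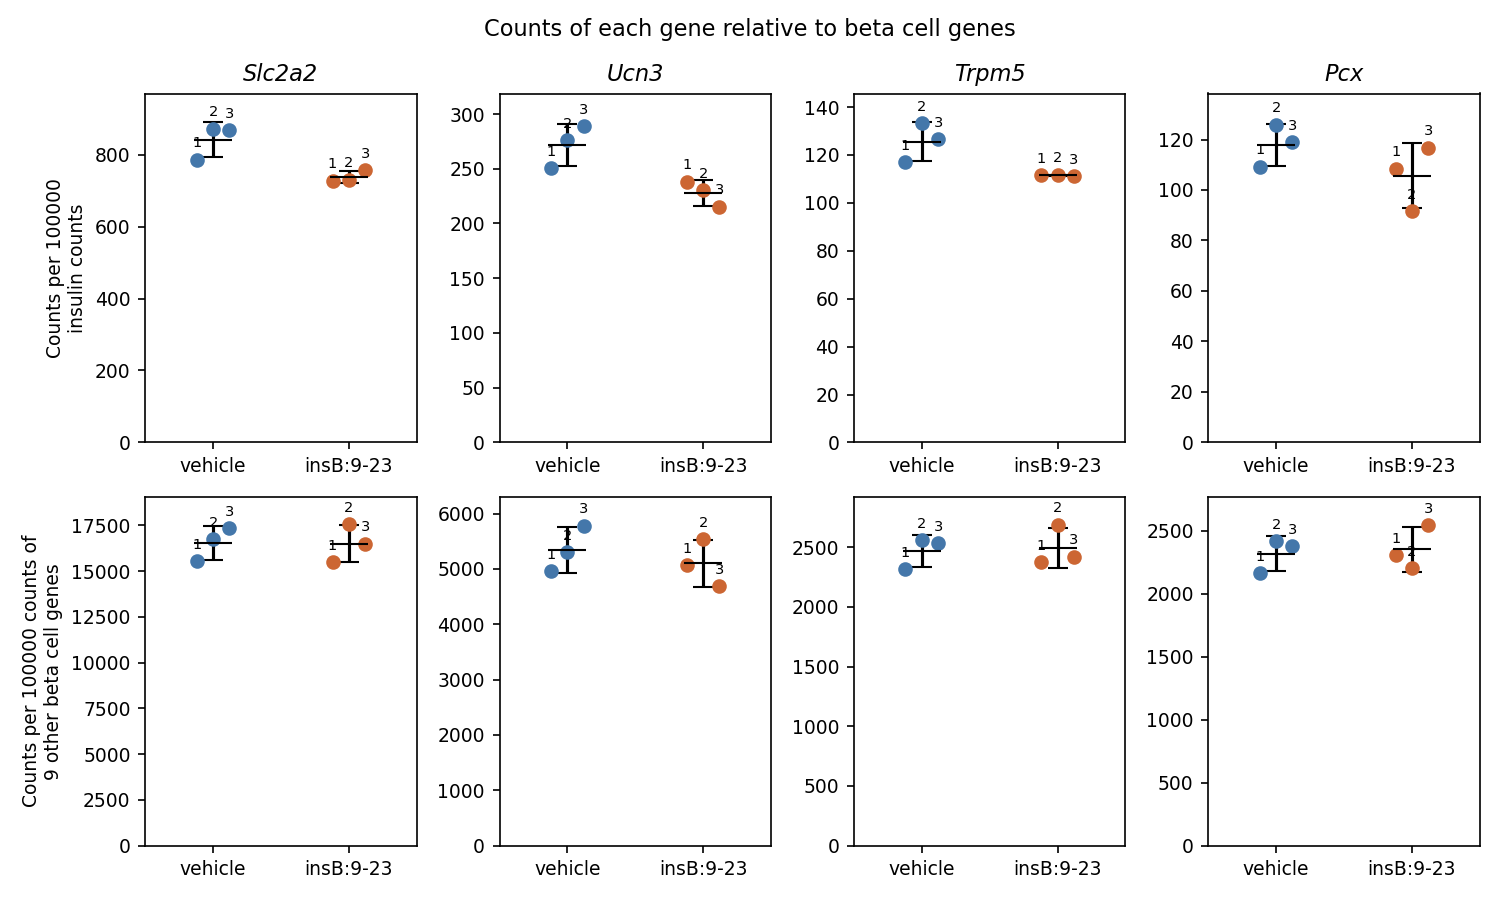
Counts of each gene per 100000 counts of Ins1 and Ins2 (upper row) and per 100000 counts of 9 other beta cell markers (lower row) in each library (points, numbered by replicate), with means and SD (bars, n = 3). Slc2a2, Ucn3 and Trpm5 do not overlap between groups in the upper row, and all 4 genes overlap in the lower row.

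Slc2a2, Ucn3 and Trpm5 varied alike across libraries and Pcx did not. Pearson's r of log2 CPM over the 6 libraries, given as a description because the points share library, scaling and group, was 0.92 between Slc2a2 and Trpm5, 0.81 between Slc2a2 and Ucn3 and 0.82 between Ucn3 and Trpm5. With Pcx it was 0.21 for Slc2a2, -0.03 for Ucn3 and 0.02 for Trpm5. With Ins1 it was -0.24 for Slc2a2, -0.43 for Ucn3, -0.11 for Trpm5 and 0.35 for Pcx, and with Ins2 0.04, 0.01, 0.13 and -0.78.

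The genes most like each by the same measure, among 8226 others at a mean of 10 CPM or more, were Ubr1 (r = 0.997), Fyco1 (0.995) and Phykpl (0.992) for Slc2a2. For Ucn3 they were Ccdc43 (0.988), Iqgap1 (0.985) and Heatr1 (0.983). For Trpm5 they were Ehf (0.992), Maob (0.991) and Cpeb3 (0.988), and for Pcx they were Dvl1 (0.996), Harbi1 (0.992) and Idh2 (0.988). High values are common with 6 libraries: 149 genes lay above 0.9 for Slc2a2, 171 for Ucn3, 109 for Trpm5 and 105 for Pcx. Likeness of pattern was not likeness of size. Ehf, for example, was at 20.4, 21.2 and 15.4 CPM in the vehicle libraries and at 7.38, 20.9 and 7.03 CPM in insB:9-23 replicates 1 to 3, while Trpm5 varied by a factor of 1.14. Maob, monoamine oxidase B, was at 113, 112 and 109 CPM and at 102, 112 and 101 CPM. None of these 12 genes passed the edgeR test over all genes.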

How the data were processed

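The authors deposited 1 table of whole-number read counts for each library, with Ensembl gene IDs. Tools named in the submitters' processing notes are HISAT, featureCounts 1.5.0-p3 and DESeq 1.8.3, and the build is GRCm38, with no role or order. Per the labels' protocols, TRIzol was used for RNA and a KAPA stranded kit for the libraries. The sources used here state neither annotation release nor strand setting. Symbols were found in GENCODE M21 for 55154 of 55421 gene IDs.

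The test of the counts was that of edgeR 4.0.16 (R 4.3.3; filterByExpr, TMM factors, robust quasi-likelihood F test, all 6 libraries), with Benjamini-Hochberg adjustment over 17016 genes and a threshold of 0.05. A standard error is the log2 fold divided by the root of F. Ratios to beta cell genes were tested by exact permutation. CPM per kilobase used all exonic bases of GENCODE M21. Ero1lb is the GENCODE name of a listed marker, and 1 second gene ID of Aldoa was left out. At the depth of these libraries 3 counts correspond to 0.0475 to 0.0655 CPM. On simulated counts for insB:9-23 against vehicle (16434 genes), edgeR called 78 of 100 genes altered 4-fold and 13 of 100 altered 2-fold, and 11 of its 102 calls were false.

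The 4 genes and the gene lists were chosen with earlier results of these data known. The text names the 4 genes, up to 4 genes of the highest level per length in each list, 18 fixed names, and the 3 genes most like each member (Pearson's r of log2 CPM, prior count 2). Of the fixed names, 2 are not reported here. Of the names outside this rule, those marked in the text were taken up for their values. Others outside it, such as Slc2a4, Crh, Ucn, Ucn2 and Fabp4, carry no mark. Alternatives were other scalings and filters, DESeq2 1.42.0, limma-voom (limma 3.58.1), an acinar covariate, the replicate number as a block, other denominators and each library left out. Libraries of 1 group differed by a chi-square of 87.1 to 270.4 per degree of freedom, so none repeated another.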

Additional observations from a re-analysis of the deposited data

How the results depend on the processing

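Slc2a2, Ucn3, Trpm5 and Pcx kept a log2 fold below 0 and no call in all 15 alternatives each (edgeR, DESeq2 and limma-voom), with folds from -0.27 to -0.08, -0.32 to -0.09, -0.25 to -0.04 and -0.25 to -0.04, and adjusted p from 0.76 to 0.999. The strongest folds came from library totals alone, where the median of all genes was -0.15. Relative to that median they were -0.12, -0.18, -0.10 and -0.11. Over all genes, 14 were called, 106 with DESeq2, 0 with the replicate number as a block (605 at an unadjusted p below 0.05 in edgeR, against 944 without it), 9 with the acinar covariate, and 16 to 26 without 1 library (26 without insB:9-23 replicate 3, 25 without its replicate 1 and 23 without vehicle replicate 1). The deviations of same-numbered libraries correlated at -0.0349, -0.0637 and -0.0249. With 3 libraries a group this cannot settle whether they share more than a number. With the block the folds were -0.12, -0.18, -0.10 and -0.09, none called. Per insulin counts the differences kept their sign without each library in turn (Slc2a2 -0.24 to -0.16, Ucn3 -0.31 to -0.21, Trpm5 -0.22 to -0.13, Pcx -0.24 to -0.066). With the 9 non-hormone beta cell markers as the reference Trpm5 (0.014) and Pcx (0.020) turned sign. The cause was not tested. By principal transcript length, chosen after the data were seen, levels per kilobase were 30.5 for Trpm5 and 29.1 for Pcx, by construction of the shorter length. On simulated counts of this size edgeR called few 2-fold changes, which limits what it can detect over all genes. That count was not made for Slc2a2, Ucn3, Trpm5 and Pcx themselves. As reported, their log2 intervals ran from -0.27 to 0.03, -0.37 to 0.006, -0.26 to 0.06 and -0.27 to 0.08. None of these reached a 2-fold change, though they reflect only how far these libraries differ among themselves.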
